A study of Mus musculus with 14 samples.

Results

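The members described here are 9 genes of the tricarboxylic acid cycle and its isocitrate dehydrogenases, chosen by name: Idh1, Idh2, Idh3g, Cs, Dlst, Fh1, Mdh1, Mdh2 and Pdha1. They were chosen with earlier results of these data known, so the counts of members called below are descriptions and not tests of the group. All 9 had a probe set with a single gene symbol in the array annotation, among 8251 genes measured in this way. They were covered by 11 probe sets, of which 10, covering all 9 genes, passed the filter on low signal (a signal above 184.8, the median of all values, on at least 3 arrays). Those 10 exceeded 184.8 on all 14 arrays, so none entered through a single group.

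RNA of whole liver from 14 mice was measured, 1 mouse per Affymetrix array, in Pit-1 mutant (Snell) dwarf mice and their wild type controls. Pit-1 is a pituitary transcription factor, and mice without it lack growth hormone, prolactin and thyroid-stimulating hormone from birth, so the hormones cannot be told apart in this model. The groups were wild type at 6 months (4 mice, animals 82, 84, 86 and 88), dwarf at 6 months (4 mice, animals 83, 85, 87 and 89), wild type at 22 months (3 mice, animals 1, 2 and 24) and dwarf at 22 months (3 mice, animals 3, 4 and 8). Each array carries its own animal number in the labels, which name neither sex, strain background, diet, treatment nor array date. Both ages are cross sections of different mice. Pou1f1, which encodes Pit-1, is a pituitary gene and was not used here as a check of genotype.

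The cycle runs in the mitochondrial matrix, where acetyl groups are oxidised and the electrons are passed to the respiratory chain. Citrate synthase (Cs) joins acetyl-CoA to oxaloacetate, isocitrate dehydrogenase makes 2-oxoglutarate, the 2-oxoglutarate dehydrogenase complex (with Dlst as its succinyltransferase) makes succinyl-CoA, and fumarase (Fh1) and malate dehydrogenase (Mdh2) close the cycle. Isocitrate is oxidised by separate enzymes: the NAD-dependent cycle enzyme, of which Idh3g is a regulatory subunit, and the NADP-dependent enzymes encoded by Idh1 in the cytosol and peroxisomes and by Idh2 in mitochondria. In liver the cycle also supplies citrate for fat synthesis and oxaloacetate for glucose production.

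Signals are linear MAS5 intensities, and differences are on the log2 scale with their standard error (SE), from a linear model over all 14 arrays (limma, Benjamini-Hochberg adjustment over 7227 probe sets). A gene was called at an adjusted p under 0.05. Signals of different probe sets are not compared with each other. The median signal of an array was 186.85 to 221.05 in 6-month dwarfs and 166.8 to 187.1 in the other 3 groups. The 3' to 5' ratio of the Gapdh and beta-actin controls, a measure of RNA and labelling quality, was 1.73 to 2.18 in 6-month dwarfs and 1.01 to 1.23 in 22-month dwarfs, with no overlap, and 0.97 to 2.03 and 1.22 to 1.40 in wild types. The 18S control signal was 45.8 to 162.7 at 6 months and 184.5 to 1147 at 22 months. The array of wild type animal 88 (6 months) stood nearer to the 22-month wild types (mean absolute log2 distance 0.384) than to its own group (0.424). Summed signals of 7 hepatocyte markers were 134661 to 163353 in 6-month wild types, 174829 to 241382 in 6-month dwarfs, 142285 to 182984 in 22-month wild types and 143667 to 168369 in 22-month dwarfs, so the tissue label matched its markers. The cholangiocyte markers Krt19, Krt7 and Epcam were at or below the floor of 54.9 on all arrays.

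The clearest genotype difference among the members was that of Idh2, the mitochondrial NADP-dependent isocitrate dehydrogenase, which was more than 3 times higher in dwarf liver at both ages. Idh1, the cytosolic and peroxisomal enzyme, was lower in dwarf liver at 6 months, with a difference of the opposite sign to that of Idh2, and close to the wild type level at 22 months. Cs and the main probe set of Dlst were also lower in 6-month dwarfs. With age, Idh1, Dlst, Pdha1 and Cs rose and Fh1 fell in dwarf mice. The 3' to 5' ratio did not overlap between the dwarf ages, so age and this ratio cannot be told apart there. With the ratio as a covariate the Idh1 rise alone was called among the members. Over all probe sets 51 were then called with age in dwarfs, against 1193 without it. No member was called with age in wild type mice.

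**Figure D1:**
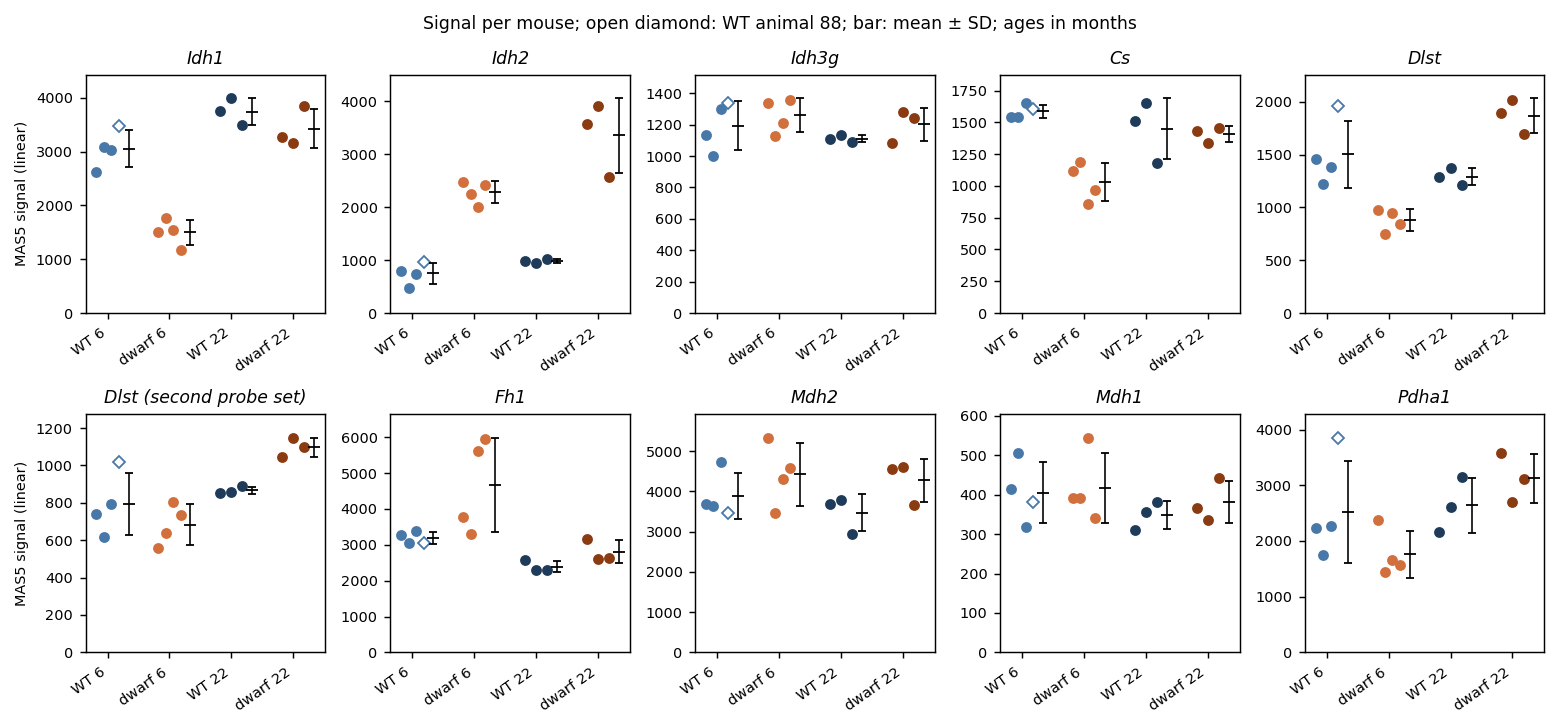
MAS5 signal (linear, axis from 0) of the 10 tested member probe sets in each mouse, by genotype and age in months; each point is 1 mouse, the open diamond is wild type animal 88, and bars are the mean ± SD of 3 or 4 mice. Idh2 separates the genotypes at both ages, whereas Idh1, Cs and the main probe set of Dlst are low in the 6-month dwarfs only; the second Dlst probe set overlaps at 6 months.

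At 6 months, 4 of the 9 members were called between dwarf and wild type mice (1 higher, 3 lower), and over all 5473 genes 13.4% were called (6.3% higher and 7.09% lower). The members' median difference was 0.04, beside 0.09 over all genes.

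Idh2 had signals of 803.2, 481.4, 738.9 and 970.3 in the 4 wild type mice at 6 months (748.5 ± 203, SD, n = 4). In the 4 dwarfs of that age its signals were 2469, 2241, 2010.2 and 2430.0 (2288 ± 210.1, SD, n = 4). Every dwarf was above every wild type, with the lowest dwarf more than 2 times the highest wild type. The log2 difference was 1.65 ± 0.19 (95% interval 1.25 to 2.05), or 3.14-fold, with an adjusted p of 2.42e-05 (limma, Benjamini-Hochberg). At 22 months the wild types had 985.9, 940.8 and 1015 (980.4 ± 37.2, SD, n = 3) and the dwarfs 3579, 3919 and 2571 (3356 ± 701, SD, n = 3). The groups again did not overlap, and dwarf animal 8 was the lowest of the older dwarfs. That difference was 1.75 ± 0.22 (1.29 to 2.22), or 3.37-fold (adjusted p = 0.000141, limma with Benjamini-Hochberg), and the genotype difference did not differ detectably between the ages (interaction 0.10 ± 0.29, adjusted p = 0.917, limma with Benjamini-Hochberg). Idh2 was called at both ages in each of the 25 alternative fits, with differences of 1.45 to 1.79 at 6 months and 1.63 to 1.93 at 22 months. The summed signal of the pancreas markers measured, Cela1 and Prss2, was 453.2 to 567.3 in 6-month dwarfs against 1522 to 2417 in wild types, and 488.7 to 1023 against 1641 to 2295 at 22 months, so it too separated the genotypes at both ages, in the other direction; its part in the result was not tested.

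Idh1 had signals of 2629, 3086, 3034 and 3475 in 6-month wild types (3056 ± 346, SD, n = 4). In the dwarfs of that age it had 1514, 1758, 1542 and 1179 (1498 ± 239, SD, n = 4). All 4 dwarfs lay below all 4 wild types. The difference was -1.04 ± 0.14 (-1.33 to -0.75), 2.05-fold lower in dwarfs, with an adjusted p of 0.000103 (limma, Benjamini-Hochberg). Without animal 88, the highest of the wild types, Idh1 differed by -0.97 (adjusted p = 0.000432, limma), within a range of 2.59e-05 to 0.00131 over all alternatives.

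Dlst is represented by the probe set with the higher mean. It read 1457, 1223, 1378 and 1955 in 6-month wild types (1503 ± 317, SD, n = 4) and 978.6, 751.8, 943.4 and 846.1 in dwarfs (880.0 ± 102, SD, n = 4). The groups did not overlap, and animal 88 was the highest. Dlst was 1.69-fold lower in dwarfs (-0.76 ± 0.15, adjusted p = 0.00323, limma with Benjamini-Hochberg), and without animal 88 by -0.62 (adjusted p = 0.00725; range over the alternatives 0.0013 to 0.0182). The second Dlst probe set read 791.8 ± 166 in wild types and 683.1 ± 108 in dwarfs (SD, n = 4 each), with overlapping values and a difference of -0.20 ± 0.16 that was not called (adjusted p = 0.417, limma). The lower Dlst signal thus rests on 1 of its probe sets.

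Cs read 1546, 1539, 1648 and 1608 in 6-month wild types (1585 ± 52.3, SD, n = 4) and 1116, 1187, 854.0 and 970.7 in dwarfs (1032 ± 149, SD, n = 4). All dwarfs were below all wild types. The difference was -0.63 ± 0.14 (-0.92 to -0.34), 1.55-fold lower in dwarfs (adjusted p = 0.00607, limma with Benjamini-Hochberg). Idh1, Idh2, Dlst and Cs were each called at 6 months under every alternative run, including the 3' to 5' ratio as a covariate, where the differences were -0.95, 1.78, -0.63 and -0.64. When each array was scaled to a common median they were -1.23, 1.46, -0.95 and -0.83, since that scaling moved the median of all probe sets from 0.10 to -0.10. The summed signal of 6 endothelial markers was 1879 to 2174 in 6-month dwarfs and 1198 to 1524 in the wild types of that age, and hepatocyte markers were higher too; the part of either in these differences was not tested. In bulk liver, fewer cells of a type and less RNA per cell cannot be told apart.

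The 4 members that were called at 6 months are shown by the 250 bases before a transcription start that RefSeq lists, because their differences between genotypes ran in opposite directions. The windows are from RefSeq on build GRCm38.p6, written 5′ to 3′ on the strand of the gene, which is minus for Idh1 (chr1:65186480-65186729) and Idh2 (chr7:80115351-80115600) and plus for Cs (chr10:128337477-128337726) and Dlst (chr12:85110583-85110832). Capitals mark matches on either strand to 5 motifs that were searched. These were the nuclear receptor repeat unit AGGTCA, the E-box CACGTG, the CCAAT box, the GC-box core GGGCGG and the STAT core TTCNNNGAA, which may overlap each other. All 9 members had a window, and for Idh1, with several windows, the outermost was used. The Idh2 and Dlst windows are the only ones listed, and their starts lie inside the annotated extent of the gene, not at its edge.
Idh1: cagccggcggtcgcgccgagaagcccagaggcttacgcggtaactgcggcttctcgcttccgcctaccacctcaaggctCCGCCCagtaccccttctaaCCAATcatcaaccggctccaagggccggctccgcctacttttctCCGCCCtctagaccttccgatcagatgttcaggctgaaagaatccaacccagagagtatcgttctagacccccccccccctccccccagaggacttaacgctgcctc
Idh2: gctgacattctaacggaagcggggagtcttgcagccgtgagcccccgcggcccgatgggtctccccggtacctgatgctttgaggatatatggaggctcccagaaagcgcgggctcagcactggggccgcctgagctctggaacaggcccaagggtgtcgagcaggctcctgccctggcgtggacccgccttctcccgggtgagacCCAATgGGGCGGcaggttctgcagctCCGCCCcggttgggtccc
Cs: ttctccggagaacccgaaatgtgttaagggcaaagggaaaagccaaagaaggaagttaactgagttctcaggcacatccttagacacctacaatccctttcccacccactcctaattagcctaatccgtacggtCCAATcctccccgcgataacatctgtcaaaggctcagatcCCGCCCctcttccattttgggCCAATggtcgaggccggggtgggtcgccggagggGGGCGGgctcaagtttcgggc
Dlst: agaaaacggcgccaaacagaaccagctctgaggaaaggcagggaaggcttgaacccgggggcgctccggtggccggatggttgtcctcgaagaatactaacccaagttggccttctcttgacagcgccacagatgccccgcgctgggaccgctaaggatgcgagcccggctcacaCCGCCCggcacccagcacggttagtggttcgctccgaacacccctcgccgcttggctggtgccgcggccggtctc
GGGCGG stood in all 4 windows, with 2 matches each for Idh1, Idh2 and Cs and 1 for Dlst, and it stood in 32.7% of the 32851 mouse windows of this length. Mdh1, Mdh2 and Fh1, which were not called at 6 months, held it too, so 7 of the 9 members did. The windows of the 9 members held 52.8% (Fh1) to 67.2% (Idh2) G and C, beside a median of 52.4% over all windows. The part of this base content in the matches was not tested. CCAAT stood in the windows of Idh1 (1 match), Idh2 (1 match) and Cs (2 matches), in those of Mdh1 and Fh1, and in 33.8% of all windows. CACGTG and TTCNNNGAA, in 6.02% and 7.02% of all windows, had no match in any of the 9 members, and AGGTCA, in 14.02%, had 1, in Fh1. Idh1 and Idh2 both held CCAAT and GGGCGG, and the part of any match in the genotype differences was not tested. A match is a run of letters and was not measured as a bound site.

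Among the remaining members, Fh1 (fumarase) read 3260, 3045, 3389 and 3045.0 in 6-month wild types (3185 ± 170, SD, n = 4). The dwarfs had 3789, 3301, 5626 and 5956 (4668 ± 1319, SD, n = 4). Animals 87 and 89 were well above the other dwarfs, and animal 85 was within the wild type range. The difference of 0.51 ± 0.17 was not called (adjusted p = 0.0553, limma), and it was called without animal 85 (0.66, adjusted p = 0.0117) or without animal 83 (0.59, adjusted p = 0.0342). It was also called with quantile normalization (0.61, adjusted p = 0.0195, limma) and with the stricter filter at the 75th percentile (0.51, adjusted p = 0.0428, limma), within a range of 0.0117 to 0.264 over the alternatives. Pdha1, the E1 alpha subunit of pyruvate dehydrogenase that feeds the cycle, differed by -0.49 ± 0.22 (adjusted p = 0.155, limma) and by -0.26 without animal 88. Idh3g (0.08 ± 0.13), Mdh2 (0.18 ± 0.15) and the cytosolic malate dehydrogenase Mdh1 (0.04 ± 0.19) had overlapping values and were not called.

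**Figure D2:**
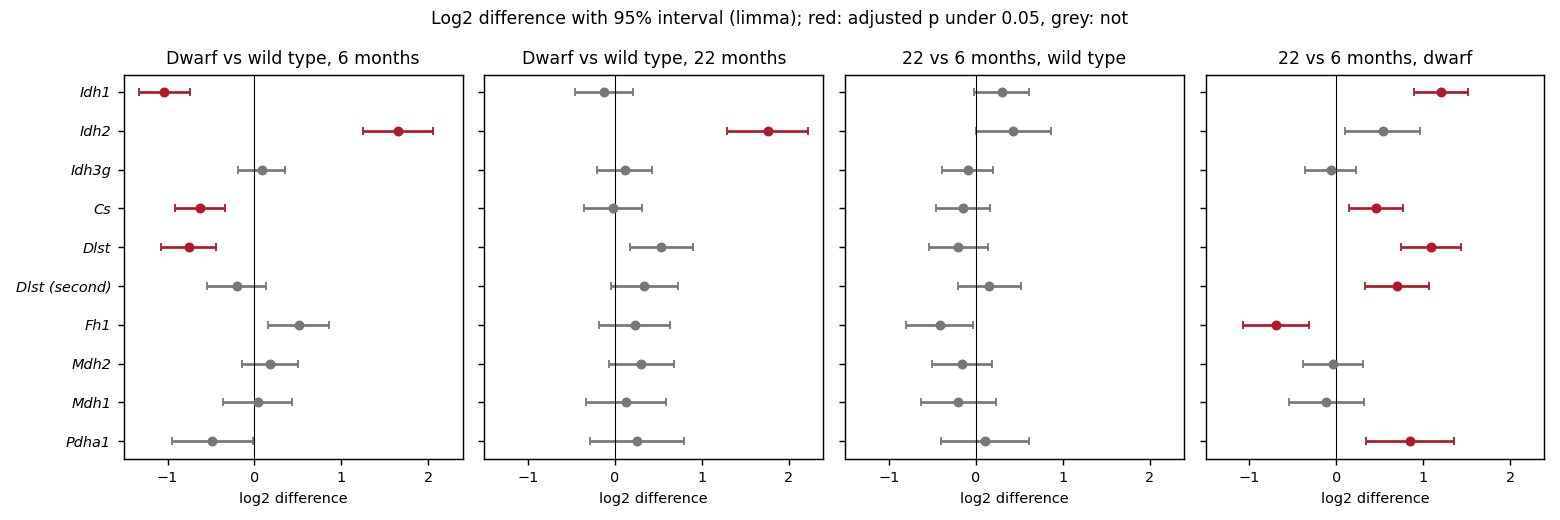
Log2 difference (x axis) of each tested member probe set in the 4 pairwise comparisons, with 95% intervals from limma; red marks an adjusted p under 0.05. Idh2 is the only member called between genotypes at both ages, and no member is called between ages in wild type mice.

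At 22 months, 1 of 9 members was called between genotypes, Idh2, and 2.87% of all genes were (1.39% higher and 1.48% lower). The members' median difference was 0.23, beside 0.00 over all genes. Idh1 read 3747, 3989 and 3501 in older wild types (3746 ± 244, SD, n = 3) and 3279, 3161 and 3845 in older dwarfs (3428 ± 366, SD, n = 3). The values overlapped, and the difference was -0.13 with an interval of -0.47 to 0.20 (adjusted p = 0.869, limma), which does not reach the 6-month difference. Cs read 1508, 1652 and 1184 in wild types (1448 ± 240.1, SD, n = 3) and 1435, 1334 and 1457 in dwarfs (1409 ± 65.4, SD, n = 3), with a difference of -0.03 ± 0.16. The Cs values overlapped, and wild type animal 24 was the lowest.

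For Dlst the 22-month signals were 1289, 1372 and 1208 in wild types (1289.8 ± 82.3, SD, n = 3) and 1896, 2015 and 1691 in dwarfs (1867 ± 164, SD, n = 3). Every older dwarf was above every older wild type, the opposite order to that at 6 months. The difference of 0.53 ± 0.17 (0.17 to 0.90) was not called (adjusted p = 0.134, limma) and was called only when arrays were weighted (0.57, adjusted p = 0.02; range over the alternatives 0.02 to 0.373). The second probe set differed by 0.34 ± 0.18 (adjusted p = 0.492, limma), also with all dwarfs above all wild types. Fh1 (0.23), Pdha1 (0.25), Mdh2 (0.30), Mdh1 (0.12) and Idh3g (0.11) were not called. The summed signal of 7 Kupffer cell and macrophage markers was 4545 to 6726 in older wild types and 3095 to 3734 in older dwarfs, without overlap, and its part in the Idh2 difference was not tested. Of these markers, Marco was at or below the floor on all arrays.

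Over both ages together, 2 of 9 members were called, Idh2 higher (1.70 ± 0.14, 3.25-fold, adjusted p = 7.36e-07) and Idh1 lower (-0.58 ± 0.10, 1.5-fold, adjusted p = 0.00145, both limma with Benjamini-Hochberg), beside 10.4% of all genes (4.66% higher and 5.7% lower). For Idh1 the average joins ages that differed. Cs (-0.33 ± 0.10, adjusted p = 0.0563, limma) was called without animal 24 (-0.40, adjusted p = 0.0261), 83 (-0.35, adjusted p = 0.0488) or 85 (-0.36, adjusted p = 0.0397), and Fh1 (0.37, adjusted p = 0.0822, limma) without animal 85 (0.44, adjusted p = 0.0205). Cs was also called with median scaling, the 75th percentile filter or array weights, and Fh1 with quantile normalization or array weights.

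In wild type mice, 0 of 9 members were called between 22 and 6 months by limma with Benjamini-Hochberg adjustment, and 2.48% of all genes were (1.41% higher and 1.08% lower). Before adjustment 2 of the 9 had a limma p under 0.05. The share of all genes at that unadjusted threshold was not counted, so this number is no result about the members. These were Idh2 with 0.43 ± 0.20 (adjusted p = 0.284, limma) and Fh1 with -0.42 ± 0.18 (adjusted p = 0.241, limma). For Idh2, 2 of the 3 older wild types were above all younger ones, and the other, at 940.8, was below animal 88, at 970.3. Fh1 read 2570 (animal 1), 2289 and 2309 in older wild types, all below the lowest young value. Idh1 differed by 0.30, and the other members by -0.20 to 0.11.

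In dwarf mice, 5 of 9 members were called between 22 and 6 months, 4 higher and 1 lower, and 16.4% of all genes were (7.93% higher and 8.46% lower). When each array was scaled to a common median it was 5 higher and 0 lower, since Idh2 was then called (0.74, adjusted p = 0.0402, limma) and Fh1 was not (-0.49, adjusted p = 0.0835, limma). That scaling moved the median of all probe sets from -0.09 to 0.12. The members' median difference was 0.46, beside -0.08 over all genes. As given above, the 3' to 5' ratio and the 18S signal of the arrays also separated the dwarf ages without overlap, so age cannot be told apart from them. Each called value below is followed by the fits that carry these measures. Summed markers of 4 cell types separated the dwarf ages too, each higher at 6 months. The sums were 1879 to 2174 against 1264 to 1637 for 6 endothelial markers and 2875 to 4419 against 2264 to 2524 for 6 stellate cell and fibroblast markers. They were 812.6 to 1122 against 587.7 to 727.4 for 5 lymphocyte markers and, as above, 174829 to 241382 against 143667 to 168369 for hepatocyte markers. The part of these cell type markers in the age differences was not tested.

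Idh1 rose from 1498 ± 239 (n = 4) to 3428 ± 366 (n = 3, both SD) with age in dwarfs, so that the lowest older dwarf, at 3161, was well above the highest younger one, at 1758. The difference was 1.20 ± 0.15 (0.89 to 1.52), or 2.3-fold, with an adjusted p of 0.000435 (limma, Benjamini-Hochberg). It was 1.02 ± 0.21 (adjusted p = 0.0449) with the 3' to 5' ratio as a covariate and 1.13 (adjusted p = 0.0214) with the 18S signal, and Idh1 was the only member called in all 25 alternatives of this comparison.

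Dlst rose from 880.0 ± 102 to 1867 ± 164 (SD), without overlap, by 1.09 ± 0.16 (0.75 to 1.43), or 2.13-fold (adjusted p = 0.0011, limma with Benjamini-Hochberg). Its second probe set, at 683.1 ± 108 and 1097 ± 50.8, also rose, by 0.70 ± 0.17 (1.62-fold, adjusted p = 0.014, limma), and here the probe sets ran the same way. With the 3' to 5' ratio as a covariate neither was called (0.81, adjusted p = 0.0904, and 0.34, adjusted p = 0.419, limma). With the 18S signal Dlst was called (0.96, adjusted p = 0.0412, limma) and its second probe set was not (0.54, adjusted p = 0.209, limma). The second was not called without dwarf animal 4 either (0.66, adjusted p = 0.0544, limma).

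Pdha1 read 2379, 1437, 1662 and 1560.4 in younger dwarfs (1759.7 ± 423, SD, n = 4) and 3577, 2694 and 3113 in older ones (3128 ± 442, SD, n = 3). The ages did not overlap in dwarfs. The difference was 0.85 ± 0.24, or 1.8-fold (adjusted p = 0.025, limma with Benjamini-Hochberg). It was 0.34 (adjusted p = 0.569) with the 3' to 5' ratio and 0.65 (adjusted p = 0.26) with the 18S signal as a covariate. The Pdha1 call was also lost without dwarf animal 3 (0.75, adjusted p = 0.105), 8 (0.85, adjusted p = 0.0643), 85 (0.76, adjusted p = 0.0624), 87 (0.83, adjusted p = 0.057) or 89 (0.80, adjusted p = 0.0575, limma).

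Cs rose by 0.46 ± 0.15 (1.38-fold, adjusted p = 0.0437, limma with Benjamini-Hochberg), from values of at most 1187 in younger dwarfs to at least 1334 in older ones. The Cs difference stayed at 0.48 with the 3' to 5' ratio and 0.43 with the 18S signal, while its adjusted p became 0.246 and 0.25. It was near the threshold: the adjusted p lay between 0.0513 and 0.129 when any 1 of animals 1, 3, 4, 8, 82, 84, 86, 87 and 89 was left out, with differences of 0.37 (without animal 87) to 0.50 (without animal 4).

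Fh1, unlike these, fell with age in dwarfs, from 4668 ± 1319 to 3168, 2599 and 2643 in animals 3, 4 and 8 (2803 ± 316, SD, n = 3). All older dwarfs were below all younger ones. The difference was -0.70 ± 0.18, 1.62-fold lower (adjusted p = 0.0175, limma with Benjamini-Hochberg), and it was -0.62 (adjusted p = 0.232) with the 3' to 5' ratio and -0.75 (adjusted p = 0.112) with the 18S signal. Fh1 was not called without animal 4 (-0.64, adjusted p = 0.0677), 8 (-0.66, adjusted p = 0.0593) or 87 (-0.59, adjusted p = 0.0535). Idh2 differed by 0.53 ± 0.20, which was not called (adjusted p = 0.0823, limma), and it was called without animal 8 (0.72, adjusted p = 0.0487) or 84 (0.53, adjusted p = 0.0359), where the second leaves its difference as it was. With the 3' to 5' ratio as a covariate the Idh2 difference was 0.25 (adjusted p = 0.666, limma) and with the 18S signal 0.59 (adjusted p = 0.251, limma). Idh3g (-0.07), Mdh1 (-0.12) and Mdh2 (-0.04) were not called, with or without either covariate.

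**Figure D3:**
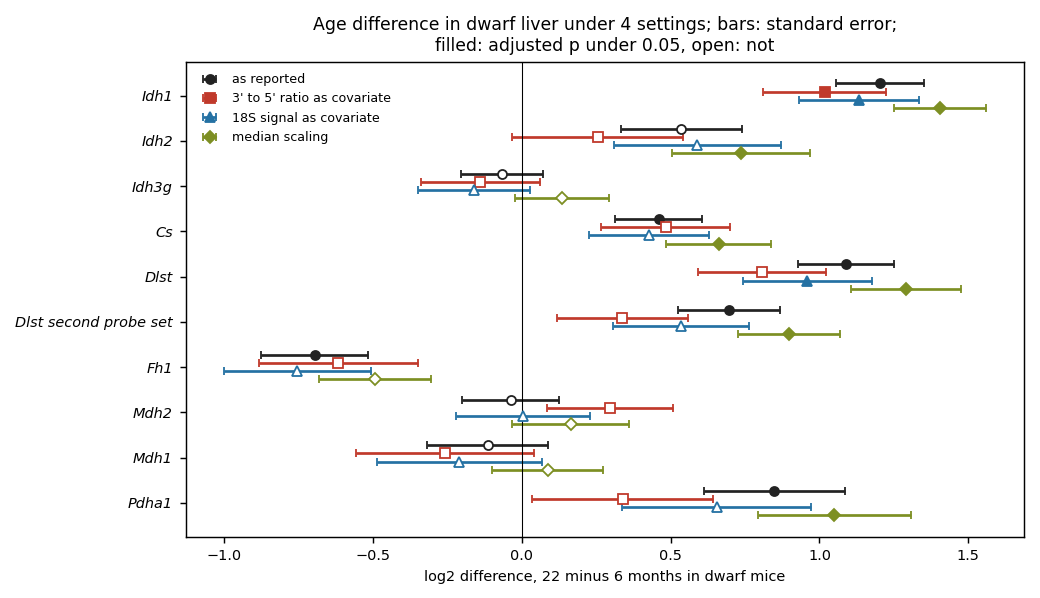
Log2 difference (x axis) between 22 and 6 months in dwarf mice for each tested member probe set under 4 settings, with the standard error as bars; filled symbols have an adjusted p under 0.05. Only Idh1 stays filled with the 3' to 5' ratio as a covariate, and the sizes of Pdha1 and of the second Dlst probe set shrink most there. That ratio does not overlap between the dwarf ages, so the fit cannot tell age from it.

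The change with age differed between genotypes (the interaction) for 2 of 9 members, Dlst and Idh1, and for 2.34% of all genes (1.75% higher and 0.585% lower). For Dlst the age difference was -0.20 in wild types and 1.09 in dwarfs, a difference of 1.29 ± 0.23 (0.81 to 1.77, adjusted p = 0.00939, limma with Benjamini-Hochberg). Dlst was called in all 24 alternatives of this test, at 1.10 (adjusted p = 0.0433) with the 3' to 5' ratio as a covariate and 1.16 without animal 88 (adjusted p = 0.0101). Its second probe set differed by 0.54 ± 0.24 and was not called (adjusted p = 0.32, limma). For Idh1 the age difference was 0.30 in wild types and 1.20 in dwarfs, a difference of 0.91 ± 0.21 (0.46 to 1.35, adjusted p = 0.0339, limma with Benjamini-Hochberg). The Idh1 call was lost with the 3' to 5' ratio (0.78, adjusted p = 0.13) and without any 1 of animals 1, 3, 4, 8, 24, 84, 86, 87, 88 and 89, where its adjusted p was 0.0558 to 0.0996 and its size 0.79 to 0.96. Cs (0.60 ± 0.21, adjusted p = 0.174) and Pdha1 (0.74 ± 0.34, adjusted p = 0.328, limma) were not called.

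The probe set of Idh3g that did not pass the filter read 77.3, 78.1, 84.4 and 106.7 in 6-month wild types and 14.7, 54.5, 37.8 and 27.6 in 6-month dwarfs, all 4 of the latter below the floor of 54.9. It read 11.2, 106.7 and 81.5 in older wild types and 61.6, 79.9 and 69.9 in older dwarfs. These signals are low on every array and were not tested, and the other Idh3g probe set, at 1194 ± 156, 1259 ± 108, 1111 ± 22.9 and 1202 ± 106 in the groups in the same order, showed no difference past the threshold.

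Of the other enzymes of the cycle, 12 of 13 listed genes were measured and 10 tested. At 6 months 4 of the 10 were called, beside 13.4% of all genes. Of these, 2 were higher in dwarfs, Ogdh, the E1 subunit of the complex that holds Dlst (0.67 ± 0.17), and Sdhd, a membrane anchor of succinate dehydrogenase (0.50 ± 0.12). In the same comparison 2 were lower, Sdha, the flavoprotein of succinate dehydrogenase (-0.57 ± 0.12), and the succinyl-CoA ligase subunit Sucla2 (-0.58 ± 0.14, on a probe set that may take up related transcripts). Ogdh and the main probe set of Dlst, of 1 complex, thus differed in opposite directions, as did Sdha and Sdhd of another, while the second Dlst probe set (-0.20) and the partners Dld (0.07), Sdhb (0.11) and Sdhc (-0.12) were not called. With age in dwarfs 2 of the 10 were called, beside 16.4% of all genes: Sdha rose (0.56 ± 0.13) and Sdhd fell (-0.45 ± 0.13), none of the 10 was called at 22 months between genotypes or with age in wild types, and Sdha was called for the interaction (0.89 ± 0.19, adjusted p = 0.0252, limma). The medians of the 10 were -0.0049 at 6 months and 0.06 with age in dwarfs, beside 0.09 and -0.08 over all genes.

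Around the entry of pyruvate, 5 of 10 listed genes were measured and 4 tested. Of the 4, 1 was called at 6 months and 1 with age in dwarfs, beside 13.4% and 16.4% of all genes. Pdhb, which encodes the beta subunit that pairs with the product of Pdha1, was lower in 6-month dwarfs (-0.74 ± 0.15, adjusted p = 0.0044, limma), and Pdk1, a kinase that inactivates the complex, rose with age in dwarfs (0.67 ± 0.16). Of the genes for anaplerosis and for exchange of citrate, malate and glutamate, 10 of 12 were measured and 9 tested. At 6 months 2 of the 9 were called, both lower in dwarfs, beside 13.4% of all genes (7.09% lower). These were Acly, which cleaves exported citrate (-0.88 ± 0.23), and the citrate carrier Slc25a1 (-0.70 ± 0.14). With age in dwarfs 5 of the 9 were called, beside 16.4% of all genes. Of these 3 rose, Pcx (pyruvate carboxylase, 0.88 ± 0.19), Slc25a1 (0.86 ± 0.15) and the dicarboxylate carrier Slc25a10 (1.19 ± 0.27). The second probe sets of Slc25a1 (-0.27, adjusted p = 0.352, limma) and Pcx (0.05, adjusted p = 0.902, limma) were not called with age, nor was that of Slc25a1 at 6 months (-0.31, adjusted p = 0.258, limma), so these calls rest on 1 of 2 probe sets. Pck1, which draws oxaloacetate off for glucose production (-1.52 ± 0.23), and the oxoglutarate carrier Slc25a11 (-0.52 ± 0.17, named after its value was seen, to complete the count) fell, and Pck1 also fell with age in wild types (-0.99 ± 0.23, adjusted p = 0.0343, limma).

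Among other suppliers of cytosolic or mitochondrial NADPH, 3 of 5 listed genes were measured and tested. Of the 3, 1 was called at 6 months and 2 with age in dwarfs, beside 13.4% and 16.4% of all genes. Me1, the cytosolic malic enzyme, was 11.1-fold lower in 6-month dwarfs (-3.48 ± 0.32, adjusted p = 3.04e-06, limma), rose with age in dwarfs (2.15 ± 0.35) and was called for the interaction (2.58 ± 0.50). Pgd, of the pentose phosphate pathway, rose with age in dwarfs (1.03 ± 0.30), and Nnt, the mitochondrial transhydrogenase, was called in none of the 4 pairwise comparisons. The fits with array measures as covariates were read for the members and not for these lists. The part of the 3' to 5' ratio or the 18S signal in the lists' age differences, in either genotype, was thus not tested. With age in wild types, 180 of all probe sets were called, and 5 with the 18S signal as a covariate.

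**Figure D4:**
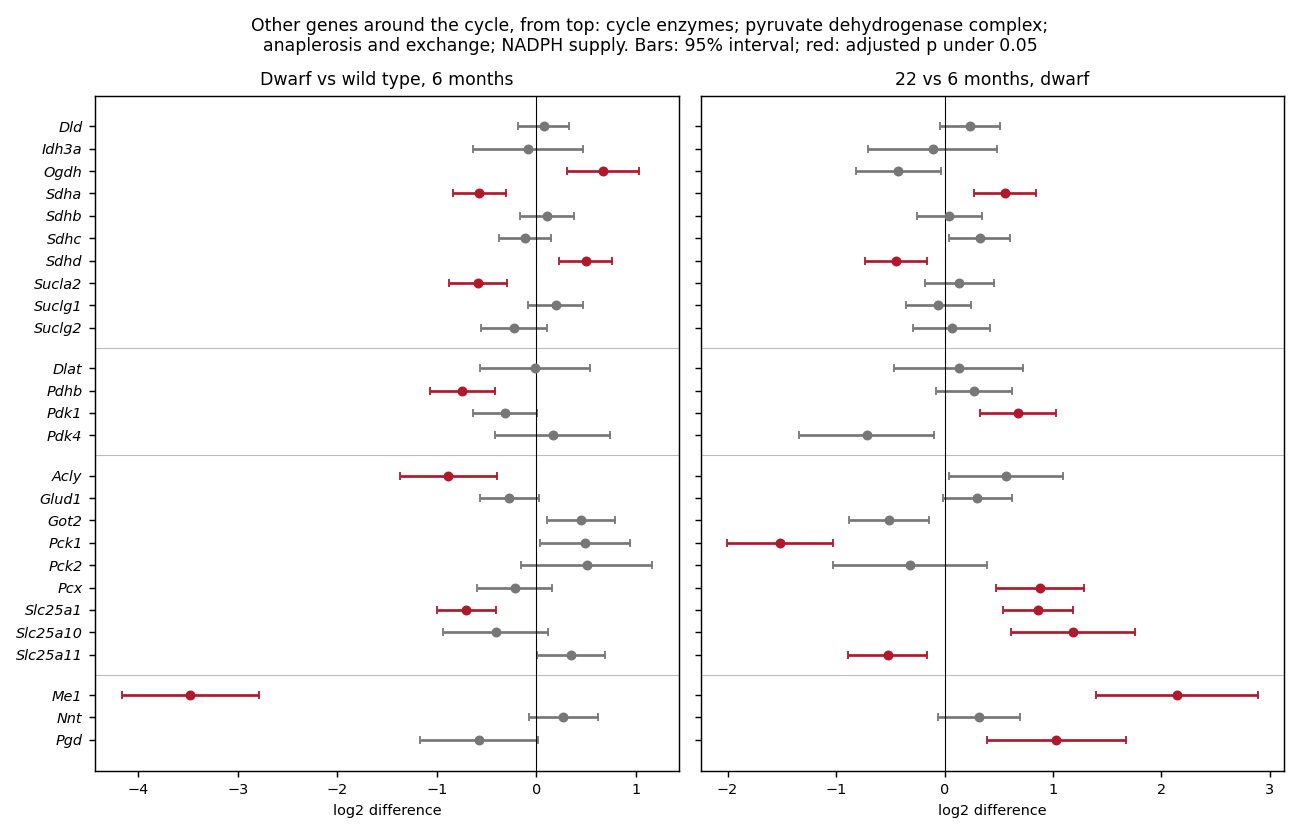
Log2 difference (x axis, with 95% intervals from limma) of the tested genes around the cycle between genotypes at 6 months and between ages in dwarf mice; red marks an adjusted p under 0.05. Me1 has the lowest value at 6 months (-3.48), and no list has all of its genes on 1 side of 0 in either comparison except the NADPH genes with age.

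The genes whose log2 signals followed each called member most closely over the 14 arrays were ranked by the mean absolute difference of the signals, each centred on its own mean. For Idh1 these were Arl14ep (0.156), Acy3 (0.157) and Morf4l2 (0.171), where the median over all genes was 0.576. For Idh2 they were Slc16a7 (0.188), Mgst3 (0.223) and Adssl1 (0.322), with a median of 0.851. For Dlst they were Clpb (0.133), Skp1 (0.152) and Ndufaf1 (0.158), and for Cs they were Enpep (0.0958), Glo1 (0.108) and Carhsp1 (0.114). The genes nearest to Fh1 were Ahcy (0.13), Eci2 (0.138) and Tsc2 (0.138), and those nearest to Pdha1 were Hpn (0.156), Elob (0.171) and Slc25a10 (0.182), the carrier named above. None of the 9 members stood among the 3 genes nearest to any of these 6. With 3 of 5472 genes kept per member, this says nothing on whether the members vary together. Idh3g, Mdh1 and Mdh2, called in no comparison, were not ranked.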

How the data were processed

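Liver total RNA of 14 mice was put on Affymetrix arrays of 12488 probe sets. The deposited values are the authors' signal intensities. MAS5 is named for them in the submitters' processing notes; its settings, detection calls and array batches are not given in the sources used here. Intensities below 54.9 (the 25th percentile of all values) were raised to it, log2 was taken, 66 control probe sets were left out, and the 7227 probe sets above 184.8 on at least 3 arrays were tested.

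All arrays entered 1 linear model with a mean per group (limma 3.58.1 in R 4.3.3, eBayes with trend), with 6 contrasts and Benjamini-Hochberg adjustment per contrast. Mice are separate animals, so p-values measure the spread between them. Where several probe sets of a gene were tested, the brightest on average stood for it (5473 genes). The fit was checked on simulated data. The number of arrays limits the precision.

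All member probe sets are named, with the up to 4 called genes of smallest p per list and comparison (and Slc25a11, outside this rule), and the 3 genes nearest to each called member. Members and lists were chosen with earlier results of these data known. Of the probe sets, 10855 had 1 symbol, 396 several and 1237 none listed; only the first were named. Alternatives were other scalings, floors, filters and variance models, weighted arrays, the compared groups fitted alone, the 3' to 5' ratio or the 18S signal as a covariate, and each array left out.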

Additional observations from a re-analysis of the deposited data

Results flagged for a closer look

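For 2 members the change with age differed between the genotypes by a test of the difference itself (limma, Benjamini-Hochberg adjustment over 7227 probe sets). Dlst (the probe set with the higher mean) rose 1.29 more on the log2 scale in dwarf than in wild type mice, and Idh1 rose 0.91 more. The Dlst difference came with a second probe set at 0.54 that was not called, and the Idh1 difference had an adjusted p of 0.0339, which was lost in 14 of the 24 alternatives run. The 3' to 5' ratio of the arrays was 1.94 ± 0.23 at 6 and 1.14 ± 0.11 at 22 months in dwarfs, and 1.59 ± 0.49 and 1.28 ± 0.10 in wild types (SD, n = 4 and 3); with it as a covariate the differences were 1.10 for Dlst, called, and 0.78 for Idh1, not called. No single mouse stood out from its group among the 20 sets of 4 values, all at 6 months, examined by Dixon's test, which by chance marks about 1 set in 20. With 4 values it marks only a gap above 0.829 of the range. The 22-month groups of 3 mice were not examined, so outlying mice are not excluded.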

How the results depend on the processing

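Of 1474 member differences recomputed under 11 alternatives and with each of the 14 arrays left out, 1409 kept their side of the threshold, 47 lost a call, 18 gained one, and no called difference turned its direction; among 1085 that were called in neither fit, 41 changed sign. The members called at 6 months numbered 4, 5 with quantile normalization or the 75th percentile filter (Fh1 in both), and 4 to 5 with an array left out; at 22 months 1, and 2 with array weights; with age in wild types 0 throughout. With age in dwarfs 5 were called, 3 when the compared groups were fitted alone, 1 with the 3' to 5' ratio and 2 with the 18S signal as a covariate, and 2 to 5 with an array left out (2 without dwarf animal 87, 3 without dwarf animal 3, 4, 8 or 89). For the interaction 2 were called, 1 with quantile normalization, without the filter, without the trend or with the 3' to 5' ratio, and 1 to 2 with an array left out. Over both ages 2 were called, 4 with array weights and 2 to 4 with an array left out (4 without dwarf animal 85). It was 3 with quantile normalization (Fh1 added), and 3 with median scaling or the 75th percentile filter (Cs added in both). The cause of these changes in the counts was not tested.

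Over all probe sets, 962 were called at 6 months and 630 with those groups alone; 212 at 22 months and 442 with array weights; 180 with age in wild types, and 106 with median scaling, 102 without the filter, 90 without the trend, 472 with array weights, 76 with those groups alone and 5 with the 18S signal; 1193 with age in dwarfs, and 51 with the 3' to 5' ratio and 128 with the 18S signal; and 158 for the interaction, and 69 without the filter, 64 without the trend and 57 with the 3' to 5' ratio. With 1 array left out the counts ran from 709 to 1098 at 6 months, 126 (without animal 3) to 241 at 22 months, and 46 to 169 for the interaction (46 to 104 without 1, 3, 4, 8, 24, 82 or 87). With age in wild types they ran from 60 to 456 (60 to 70 without 1, 2, 24, 84 or 86, and 456 without 88), and in dwarfs from 520 to 1453 (520 to 755 without 3, 4, 8 or 87). Median scaling turned the split of higher and lower calls from 460 and 502 to 188 and 846 at 6 months, from 574 and 619 to 925 and 242 with age in dwarfs, and from 111 and 47 to 156 and 18 for the interaction. No paired analysis was made because the labels state no pairing of mice between the groups. The 3' to 5' ratios of the dwarf ages do not overlap.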

Other observations

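A list of 12 other mitochondrial genes, of which 10 were measured and 8 tested, gave calls for Cycs and Uqcrc2 alone. At 6 months 1 of the 8 was called, beside 13.4% of all genes. With age 1 was called in wild types, beside 2.48% of all genes. In dwarfs 1 was higher and 1 lower with age, beside 7.93% and 8.46%. Cycs, the cytochrome c of the respiratory chain, was lower in 6-month dwarfs (-0.91 ± 0.17, adjusted p = 0.00229, limma with Benjamini-Hochberg) and rose with age in dwarfs (0.71 ± 0.18, adjusted p = 0.0178, limma). Uqcrc2, a core subunit of complex III, fell with age in wild types (-1.24 ± 0.22, adjusted p = 0.0109, limma) and in dwarfs (-1.45 ± 0.22, adjusted p = 0.00137, limma), on a probe set that may take up related transcripts. The list's median difference was 0.21 at 6 months and 0.23 with age in dwarfs, beside 0.09 and -0.08 over all genes.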
